A study of Mus musculus with 6 samples.

Results

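Secreted Wnt antagonists are proteins that leave the cell and block Wnt signalling from outside, either by holding the Wnt ligand or by occupying its co-receptor. The 10 antagonist genes described here are Dkk1, Dkk2, Dkk3, Sfrp1, Sfrp2, Sfrp4, Frzb, Wif1, Sost and Sostdc1. They were chosen by name for this known role, with earlier results of these data known. All 10 were found among the 24346 gene names of the deposited tables. RNA came from the calvaria, the roof of the skull, of newborn mice, with the interparietal and occipital bone kept and the cartilage of the ear left out. There were 3 libraries labelled mutant, of genotype Prx1-Cre;Pth1rfl/fl, and 3 control libraries of genotype Pth1rfl/fl, so both groups carry the floxed alleles of Pth1r and the Cre transgene is what sets them apart. Prx1-Cre is driven by a regulatory sequence of Prrx1 that is known to act in mesenchyme of the limbs and of part of the skull, so cells of other origin keep an intact receptor gene. The labels give no sex, no exact age, no strain and no statement on pooling, and nothing says that all libraries of a group came from separate animals. Sex-linked transcripts show both sexes in each group, so each group drew on more than 1 animal. The p-values therefore measure the spread between these libraries, which may be partly technical.

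Wnt ligands bind Frizzled receptors together with the co-receptors LRP5 and LRP6, and in bone this favours the formation and activity of osteoblasts, the cells that lay down bone. Apart from Dkk3, a divergent member of its family, the antagonists fall into 2 biochemical kinds. The secreted frizzled-related proteins, which include Sfrp1, Sfrp2, Sfrp4 and Frzb, carry a domain like that of a Frizzled receptor and bind the ligand, as does the Wif1 protein through a domain of its own. The Dkk1 and Dkk2 proteins, sclerostin (the product of Sost) and its relative Sostdc1 instead bind LRP5 and LRP6. In skeletal tissue Frzb and Wif1 are best known from cartilage and its surface, Sost and Dkk1 from osteocytes, which are osteoblasts buried in bone, and the others from mesenchyme and fibroblasts. Signalling through the receptor encoded by Pth1r is known to lower Sost in the osteocytes of adult bone.

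Levels are in FPKM, a fragment count corrected for library size and transcript length. Pth1r, the targeted gene, had higher and not lower levels under the mutant label, at 127, 125 and 142 FPKM against 89.2, 93.3 and 102 FPKM in controls (log2 change 0.47, adjusted p = 0.065 by limma, and an exact permutation p of 0.1, two-sided, the smallest possible). The sources used here do not give the exons that the alleles remove, and all directions follow the labels. Control 2 alone held much RNA of inner ear genes, and control 3 had the least RNA of cartilage genes among the controls. Absolute depth is unknown. Steps among the lowest values put the depth of the other libraries between 0.703 and 0.972 of that of control 1, with the libraries labelled mutant 2 and 3 the shallowest. Bone genes were abundant, led by Col1a1 and Col1a2 in the osteoblast list, of which 1 of 9 genes rose and 5 had an unadjusted p under 0.05. Of these 5, named with their values known, Runx2, Alpl, Ibsp and Spp1 had a higher mean under the mutant label and Bglap a lower one. The gene that rose was Ibsp. In the osteoclast list, led by Ctsk and Acp5, 7 of 8 rose and all 8 had an unadjusted p under 0.05. In the lists of meninges (led by Ptgds and Zic1), skeletal muscle (Acta1 and Mylpf), red cells (Hba-a1 and Hbb-bs), nerve (Tubb3 and Stmn2) and inner ear, 0 passed in either direction. At an unadjusted p of 0.05 there were 2 in the meninges list and 0 in the other 4. Single libraries stood apart here too. The meninges list summed to 171 FPKM in control 1, against 630 and 592 FPKM in controls 2 and 3. The nerve list summed to 102 FPKM in library 2 labelled mutant and to between 19.2 and 52.4 FPKM in the other libraries.

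None of the 10 antagonist genes passed the test between the libraries labelled mutant and the controls. With limma on log2(FPKM + 1) and Benjamini-Hochberg adjustment over 13180 genes, 0 of 10 rose and 0 of 10 fell at an adjusted p of 0.05. Over all tested genes the same rule called 0.524% higher and 0.0835% lower in the libraries labelled mutant. At an unadjusted p of 0.05, 2 of the 10 passed, Dkk1 with a higher mean and Sfrp4 with a lower one, against 10.5% of all tested genes. The same 2 genes were those whose groups did not overlap, a state shared by 16.1% of all tested genes. The median log2 change over the 10 genes was -0.10, against 0.00147 over all genes tested, with a higher mean in 4 of them and a lower mean in 6.

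The size of a difference that these libraries leave possible can be read from the interval of each gene. For 9 of the 10 genes the 95% interval of the log2 change, on the log2(FPKM + 1) scale and not adjusted for the number of genes, lay within a 2-fold change in either direction. For 6 of them it lay within 1.5-fold. Sost was the exception to the 2-fold limit, with an interval from -1.18 to 0.28. This scale understates changes of low genes, and the upper end for Dkk1, at 0.97, lay close to the 2-fold limit. With a pseudocount of 0.1 the log2 change of Dkk1 was 0.58 in place of 0.53.

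**Figure D1:**
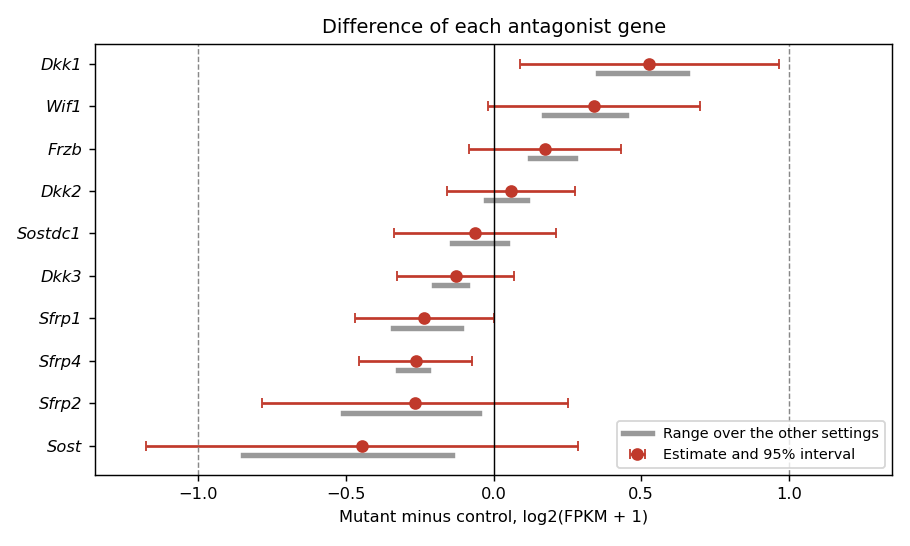
Difference of each antagonist gene between the libraries labelled mutant and the controls on the log2(FPKM + 1) scale, with the estimate and 95% interval in red, the range over the other settings tried in grey, and dashed lines at a 2-fold change. Dkk1 lies farthest to the right at 0.53 and Sost farthest to the left at -0.45, and the interval of Sost is the 1 that crosses a dashed line.

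The 10 genes covered a wide span of levels, which FPKM allows to be set side by side because it is scaled to transcript length. Sfrp2 was the most abundant, with means of 297 ± 97.01 FPKM in the libraries labelled mutant and 346 ± 35.5 FPKM in controls (SD, n = 3 each). It alone made up 54.5%, 48.2% and 58.5% of the summed FPKM of the 10 genes in libraries 1 to 3 labelled mutant and 60.7%, 58.5% and 58.7% in controls 1 to 3. Sostdc1 was the least abundant in both groups, at means of 3.92 FPKM in the libraries labelled mutant and 4.16 FPKM in controls. The sum over the 10 genes was 506, 441 and 688 FPKM in the libraries labelled mutant and 612, 522 and 615 FPKM in controls, so the groups overlapped.

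Below Sfrp2 the order of the means differed in places between the groups. In the libraries labelled mutant it ran Wif1, Dkk3, Dkk2, Sfrp1, Dkk1, Sfrp4, Frzb, Sost and Sostdc1. In controls it ran Dkk3, Wif1, Sfrp1, Dkk2, Sfrp4, Sost, Dkk1, Frzb and Sostdc1. In the libraries labelled mutant the ranges overlapped between Wif1 and Dkk3, Dkk2 and Sfrp1, Dkk1 and Sfrp4, Frzb and Sost, and Sost and Sostdc1. In controls they overlapped between Dkk3 and Wif1, Sfrp1 and Dkk2, Sost and Dkk1, and Dkk1 and Frzb.

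**Figure D2:**
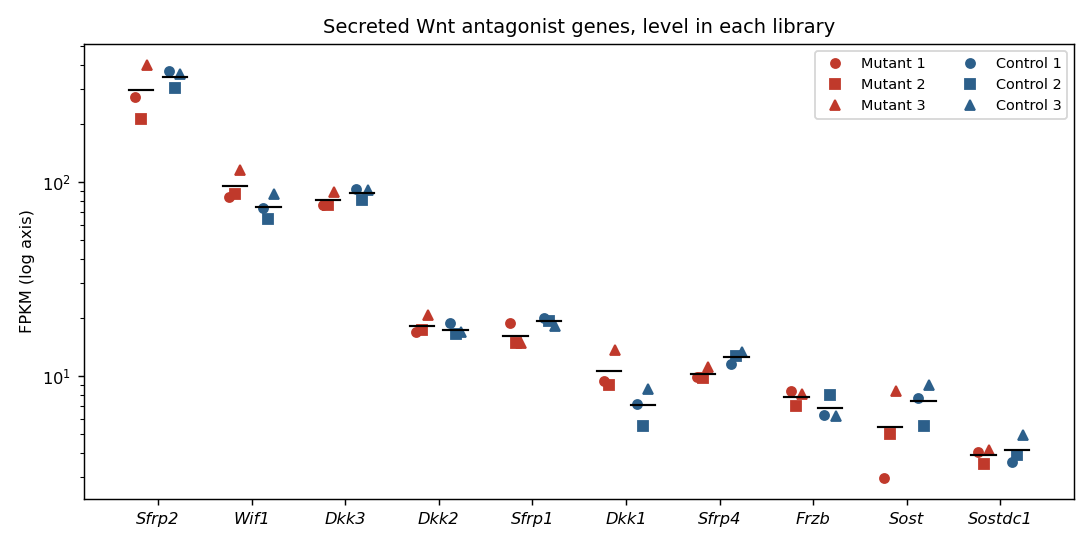
Level of the 10 antagonist genes in each of the 6 libraries in FPKM on a log axis, with libraries labelled mutant in red left of the controls in blue, a shape for each library number and black lines at the group means. Sfrp2 stands highest, Wif1 and Dkk3 come next, and the values of Dkk1 and Sfrp4 are those that do not overlap between the groups.

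Among the genes best known from cartilage, Wif1 was abundant and Frzb low, and neither passed the test. Wif1 encodes Wnt inhibitory factor 1, which binds Wnt ligands (GRCm38 chr10:121033960-121100650, plus strand). It had 83.4, 86.4 and 116 FPKM in the libraries labelled mutant, against 73.4, 64.5 and 86.3 FPKM in controls. The lowest library labelled mutant lay just under control 3, so the groups overlapped. The log2 change was 0.34 ± 0.15 (SE; 95% interval -0.02 to 0.70), with an adjusted p of 0.512 by limma. It was 0.19 without library 3 labelled mutant and 0.17 with array weights.

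Frzb, also called Sfrp3, was first known as a frizzled-related protein of cartilage (chr2:80411970-80447625, minus strand). Its values were 8.32, 6.97 and 8.09 FPKM in the libraries labelled mutant and 6.27, 7.94 and 6.25 FPKM in controls. Control 2 alone reached the level of the libraries labelled mutant. The log2 change of 0.17 ± 0.11 (SE; 95% interval -0.08 to 0.43) did not pass (limma, adjusted p = 0.67).

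The cartilage marker list gives the setting for both genes. Of its 15 names 14 matched, and 4 of these were lower and 0 higher past the threshold, with 11 at an unadjusted p of 0.05 and a median log2 change of -1.45. Their summed level was 707 to 888 FPKM in the libraries labelled mutant and 1345 to 2499.7 FPKM in controls, and none of the 14 was at 0. Col2a1, the main collagen of cartilage, had 188, 135 and 149 FPKM in the libraries labelled mutant against 802, 788 and 348 FPKM in controls, without passing (limma, adjusted p = 0.0638). Col11a2, a minor collagen chain of the same fibrils, had 224, 213 and 291 FPKM in the libraries labelled mutant, against 319, 354 and 266 FPKM in controls. The 4 genes past the threshold, named with their values known, were Matn1, Ucma, Col9a3 and Lect1. Their ratios of the mean labelled mutant over the control mean were 0.078, 0.089, 0.166 and 0.226. Of the 14 genes, 13 had a lower log2 mean under the mutant label and 1, Comp, a higher one, while the size of the change varied. Comp, a matrix protein of cartilage and tendon singled out with its values known, had 48.0, 38.8 and 35.2 FPKM in the libraries labelled mutant and 38.2, 37.3 and 23.7 FPKM in controls. Col11a1, likewise singled out, had 150.4, 128 and 171 FPKM in the libraries labelled mutant and 178, 165 and 153 FPKM in controls, and both genes overlapped between the groups. In tissue homogenised as a whole, fewer cells of a type and less RNA in each cell cannot be told apart.

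The genes best known from osteocytes had means on opposite sides of the control level. Dkk1 encodes Dickkopf-1, which binds LRP5 and LRP6 and removes them from Wnt signalling (chr19:30545863-30549665, minus strand). It had 9.45, 8.93 and 13.6 FPKM in the libraries labelled mutant, against 7.13, 5.53 and 8.53 FPKM in controls. Every library labelled mutant lay above every control, with the smallest gap between library 2 labelled mutant and control 3. The means were 10.7 ± 2.54 FPKM in the libraries labelled mutant and 7.06 ± 1.503 FPKM in controls (SD, n = 3 each), a ratio of 1.51. The log2 change of 0.53 ± 0.19 (SE; 95% interval 0.09 to 0.97) was the largest of the 10 genes and did not pass (limma, adjusted p = 0.36).

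Sost, the gene of sclerostin, had the largest standard error of the 10 genes (chr11:101962458-101967015, minus strand). Its values were 2.97, 5.003 and 8.36 FPKM in the libraries labelled mutant and 7.67, 5.50 and 9.01 FPKM in controls. Libraries 1 and 2 labelled mutant lay below every control, and library 3 lay between controls 1 and 3. The means were 5.44 ± 2.72 FPKM in the libraries labelled mutant and 7.39 ± 1.77 FPKM in controls (SD, n = 3 each), and the log2 change of -0.45 ± 0.31 (SE) did not pass (limma, adjusted p = 0.705). The value rested much on single libraries, at -0.14 without library 1 labelled mutant and -0.76 without library 3 labelled mutant.

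Among other osteocyte genes, 5 of 7 had higher log2 means in the libraries labelled mutant, without passing. Of the 8 names in the osteocyte marker list all matched, 7 were tested, and 0 passed in either direction, with 4 at an unadjusted p of 0.05 (3 higher and 1 lower) and a median log2 change of 0.06. Their summed level was 167 to 187 FPKM in the libraries labelled mutant and 145 to 164 FPKM in controls. None was at 0 in every library, though Fgf23, the phosphate hormone of osteocytes, stayed under 0.1 FPKM throughout. Dmp1, a matrix phosphoprotein of osteocytes and the most abundant gene of the list, had 61.7, 62.04 and 73.7 FPKM in the libraries labelled mutant against 52.2, 39.6 and 51.05 FPKM in controls. Its log2 change was 0.46 ± 0.12 (SE; limma, adjusted p = 0.219). Pdpn, a marker of early osteocytes that vessels also express, had means of 33.5 ± 0.46 FPKM in the libraries labelled mutant and 39.6 ± 0.82 FPKM in controls (SD, n = 3 each), with no overlap and without passing. Fam20c, Irx5 and Ackr3, singled out with their values known, overlapped between the groups. Mepe and Phex, likewise singled out, were higher without overlap and without passing. Mepe had means of 11.6 ± 1.56 FPKM in the libraries labelled mutant and 6.27 ± 2.82 FPKM in controls (SD, n = 3 each). Phex had 9.64 ± 1.25 FPKM under the mutant label and 7.15 ± 1.05 FPKM in controls.

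**Figure D3:**
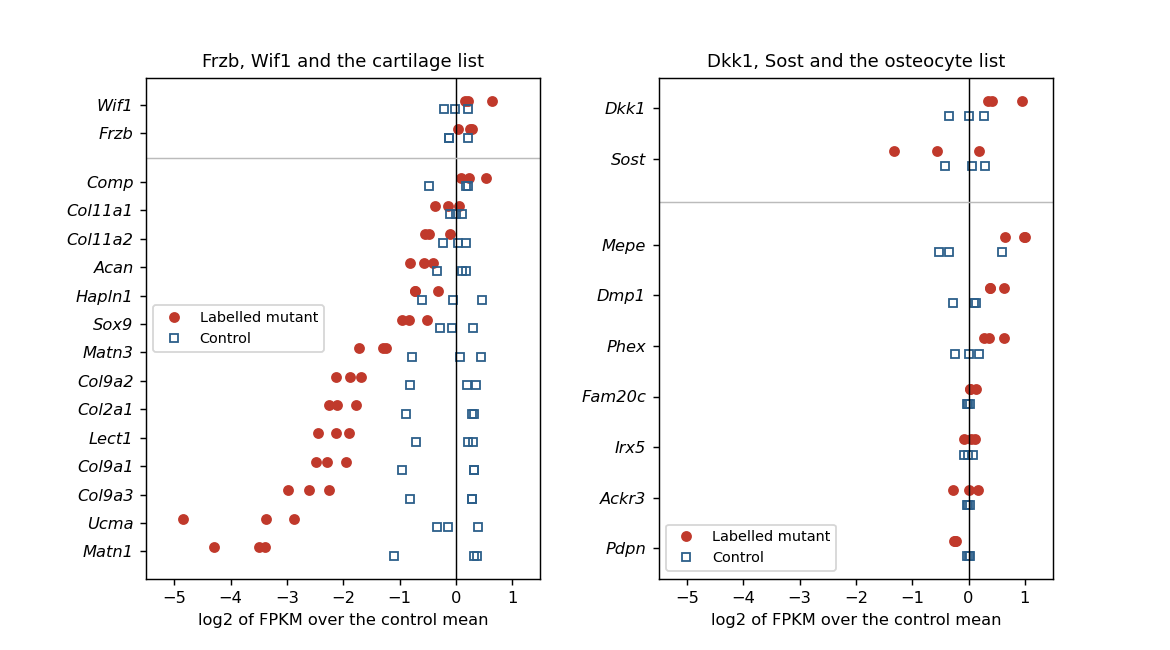
Log2 of the FPKM of each gene over its own control mean, with a red dot for each library labelled mutant and an open blue square for each control, for Frzb and Wif1 above all 14 tested genes of the cartilage list on the left and for Dkk1 and Sost above all 7 tested genes of the osteocyte list on the right. Frzb and Wif1 lie between 0.03 and 0.63 in the libraries labelled mutant. In the order drawn, the cartilage list there runs from Comp, between 0.09 and 0.54, to Matn1, between -4.29 and -3.40. Sost spreads from -1.32 to 0.18 in the libraries labelled mutant and Dkk1 from 0.34 to 0.94.

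Feedback by the Wnt pathway is known to act on Dkk1 through TCF and LEF factors, so the upstream sequences of both osteocyte genes were read for the letters CTTTGAA and CTTTGAT on either strand. RefSeq windows on GRCm38.p6, from 250 bases before to 50 bases after the start of the gene, were at hand for 6 of the 10 antagonist genes. Of these 6, 1 held a match, that of Dkk1, with its first base 117 bases before the RefSeq start. Of 32851 such windows, 8.65% held at least 1 match. The stretch of 29 bases around the match is shown with the match in capitals (chr19:30549596-30549624, minus strand), beside the 250 bases before the start of Sost (chr11:101967016-101967265, minus strand), which held none. In GENCODE M21 the gene Dkk1 starts farther upstream, so that its stretch lies within the annotated span. A match in letters is no evidence of binding, and its absence from a short window says nothing about the factors.
Dkk1: tcctcccaaagCTTTGAAatcccatcccg
Sost: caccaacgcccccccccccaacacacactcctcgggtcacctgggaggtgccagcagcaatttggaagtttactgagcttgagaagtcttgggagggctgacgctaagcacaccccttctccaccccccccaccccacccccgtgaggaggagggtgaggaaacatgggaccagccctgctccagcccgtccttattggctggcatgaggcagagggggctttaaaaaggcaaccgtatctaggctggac

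Of the 6 genes best known from mesenchyme, 5 had a lower mean in the libraries labelled mutant, and none passed. Sfrp4, a frizzled-related protein whose loss in humans thins cortical bone, was the most separated of them (chr13:19623104-19632994, plus strand). It had 9.85, 9.71 and 11.2 FPKM in the libraries labelled mutant, against 11.5, 12.7 and 13.3 FPKM in controls. Every library labelled mutant lay below every control, by the narrow gap between library 3 labelled mutant and control 1. The log2 change of -0.26 ± 0.08 (SE; 95% interval -0.45 to -0.07) did not pass (limma, adjusted p = 0.275).

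Sfrp1, a frizzled-related protein whose loss in mice raises bone mass, had 18.8, 14.9 and 14.8 FPKM in the libraries labelled mutant, against 20.0, 19.2 and 18.1 FPKM in controls (chr8:23411502-23449632, plus strand). Library 1 labelled mutant lay above control 3, so the groups overlapped, and libraries 2 and 3 lay below every control. The log2 change of -0.23 ± 0.10 (SE; 95% interval -0.47 to 0.00129) did not pass (limma, adjusted p = 0.478). Sfrp2, a frizzled-related protein of mesenchyme and fibroblasts, had 275, 212 and 403 FPKM in the libraries labelled mutant and 372, 306 and 361 FPKM in controls (chr3:83766321-83774316, plus strand). The libraries labelled mutant held both the lowest and the highest value of the 6. Its log2 change of -0.27 ± 0.22 (SE; limma, adjusted p = 0.77) was -0.05 without library 2 labelled mutant and -0.51 without library 3 labelled mutant. Its span overlaps Gm26771, an antisense gene on the minus strand, and whether the authors' counting used strand is not given in the sources used here.

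The Dickkopf genes of mesenchyme had small differences. Dkk2, which like Dickkopf-1 binds LRP5 and LRP6, had 16.8, 17.2 and 20.5 FPKM in the libraries labelled mutant and 18.7, 16.5 and 16.8 FPKM in controls (chr3:132085292-132180304, plus strand). Its 95% interval of -0.16 to 0.28 around a log2 change of 0.06 was among the narrowest, with groups that overlapped. Dkk3, a divergent member of the family that is not known to act on LRP5 and LRP6 as Dickkopf-1 does, had 76.6, 76.0 and 88.9 FPKM in the libraries labelled mutant against 92.1, 81.1 and 90.7 FPKM in controls (chr7:112116017-112159057, minus strand). Its groups overlapped, and the log2 change of -0.13 ± 0.08 (SE; 95% interval -0.33 to 0.07) did not pass (limma, adjusted p = 0.686). Sostdc1, a relative of sclerostin that also binds BMP proteins, had 4.06, 3.51 and 4.18 FPKM in the libraries labelled mutant and 3.61, 3.91 and 4.95 FPKM in controls (chr12:36314139-36318452, plus strand). It showed a log2 change of -0.06 ± 0.12 (SE; 95% interval -0.34 to 0.21) with overlapping groups.

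For the 6 antagonist genes best known from mesenchyme the median log2 change was -0.18, with 5 of them lower. The mesenchyme marker list was split, with a higher log2 mean under the mutant label in 5 genes and a lower one in 6. All 11 of its names matched and were tested, with 0 past the threshold in either direction, 1 at an unadjusted p of 0.05 and a median log2 change of -0.03. Its summed level was 3105 to 3653 FPKM in the libraries labelled mutant and 3335 to 3443 FPKM in controls, with none at 0. Col3a1, the collagen of loose connective tissue, had means of 1818 ± 136 FPKM in the libraries labelled mutant and 1868 ± 46.9 FPKM in controls (SD, n = 3 each). Postn, the periosteal matrix protein gene, had 741 ± 95.1 FPKM under the mutant label and 686 ± 81.8 FPKM in controls.

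The same libraries tended to hold the extreme values of several antagonists. Within the libraries labelled mutant, library 3 held the highest value for 8 of the 10 genes, as it did for 39.5% of all tested genes. Sfrp1 and Frzb, which were highest in library 1, were the exceptions. Control 2 held the lowest control value for 6 of the 10 genes, as it did for 35.7% of all tested genes. Library 3 labelled mutant also had the most Col1a1, the main collagen of bone, with 9475, 9429 and 13131 FPKM in the libraries labelled mutant and 9427, 10314 and 10866 FPKM in controls. It had the least RNA of red cells, whose list summed to 11940, 10245 and 2696 FPKM in the libraries labelled mutant and to between 4842 and 6906 FPKM in controls. The part of either in the antagonist levels was not tested.

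The sex of the libraries, as Xist and Y-linked transcripts show it, was not balanced. There were 1 female and 2 male libraries labelled mutant, and 2 female and 1 male libraries among the controls. As the groups did not overlap for Dkk1 and Sfrp4, a split by sex could not change their direction. In females Dkk1 had 9.45 FPKM in the library labelled mutant against 7.13 and 8.53 FPKM in controls. In males it had 8.93 and 13.6 FPKM under the mutant label against 5.53 FPKM in the control. Sfrp4 had 9.85 FPKM labelled mutant against 11.5 and 13.3 FPKM in control females, and 9.71 and 11.2 FPKM labelled mutant against 12.7 FPKM in the control male. Sost had 2.97 FPKM labelled mutant against 7.67 and 9.01 FPKM in control females. In males the control value of 5.50 FPKM lay between the values labelled mutant of 5.003 and 8.36 FPKM. With a sex term no antagonist gene passed, and the log2 change was 0.57 for Dkk1, -0.28 for Sfrp4 and -0.51 for Sost.

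Other genes of the pathway had few calls after adjustment, and more at an unadjusted p. Among receptors and co-receptors, 17 of 18 were tested, of which 0 rose and 1 fell, with 5 at an unadjusted p of 0.05, a lower log2 mean in 12 and a median log2 change of -0.11, which was -0.058 without library 3 labelled mutant. The fall was that of Fzd1, a Frizzled receptor, with 22.1, 19.5 and 22.05 FPKM in the libraries labelled mutant against 30.5, 32.9 and 29.5 FPKM in controls. Its log2 change was -0.53 ± 0.07 (SE; limma, adjusted p = 0.0379), and the call was lost when any 1 library was left out. The log2 change of Fzd1 then ran from -0.56 without control 3 to -0.47 without library 2 labelled mutant. Fzd9, a Frizzled receptor needed for full bone formation in mice, had means of 5.69 ± 1.19 FPKM in the libraries labelled mutant and 11.6 ± 3.02 FPKM in controls (SD, n = 3 each) without passing.

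Among feedback and target genes, 16 of 19 were tested, of which 1 rose and 0 fell. Of these 16, 8 had an unadjusted p under 0.05, against 10.5% of all tested genes, and 13 had a lower log2 mean, with a median log2 change of -0.17. Of these 8, named with their values known, Axin2, Nkd1, Nkd2, Lgr5, Apcdd1 and Rspo2 had a lower mean under the mutant label. Lgr4 and Lgr6 had a higher one. Lgr4, a receptor for the R-spondins that strengthen Wnt signalling, rose, with 17.2, 15.4 and 15.5 FPKM in the libraries labelled mutant against 11.7, 10.7 and 11.1 FPKM in controls (log2 change 0.48 ± 0.07 SE, adjusted p = 0.0405 by limma). That call too was lost without any 1 library, while the log2 change ran from 0.44 without library 1 labelled mutant to 0.52 without control 1. Its relative Lgr5, itself a Wnt target, had 2.47, 2.59 and 3.28 FPKM in the libraries labelled mutant against 4.404, 4.93 and 4.82 FPKM in controls, without overlap and without passing (limma, adjusted p = 0.0711). Axin2, the common readout of Wnt feedback and singled out with its values known, had 6.92, 6.61 and 6.24 FPKM in the libraries labelled mutant against 11.0005, 10.5 and 7.49 FPKM in controls (limma, adjusted p = 0.237).

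Among the ligands and the genes for their release, 13 of 21 were tested and 0 passed in either direction, with 2 at an unadjusted p of 0.05 and a median log2 change of -0.06. That median ran from -0.131 without control 1 to 0.002 without library 1 labelled mutant. The first, Wnt2b, had means of 1.89 ± 0.09 FPKM in the libraries labelled mutant and 2.72 ± 0.30 FPKM in controls (SD, n = 3 each). The other, Wnt11, had 7.14 ± 0.60 FPKM under the mutant label and 8.96 ± 0.95 FPKM in controls. Of 7 other secreted antagonists 4 were tested, with 0 past the threshold in either direction, 2 at an unadjusted p of 0.05 and a median of -0.21. Igfbp4, an IGF-binding protein that can also hinder Wnt signalling, had means of 562 ± 44.7 FPKM in the libraries labelled mutant and 657 ± 54.2 FPKM in controls (SD, n = 3 each). Tsku, a secreted leucine-rich protein, had 27.2 ± 1.39 FPKM under the mutant label and 31.1 ± 0.44 FPKM in controls. Dkk4 was listed at 0 in every library.

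**Figure D4:**
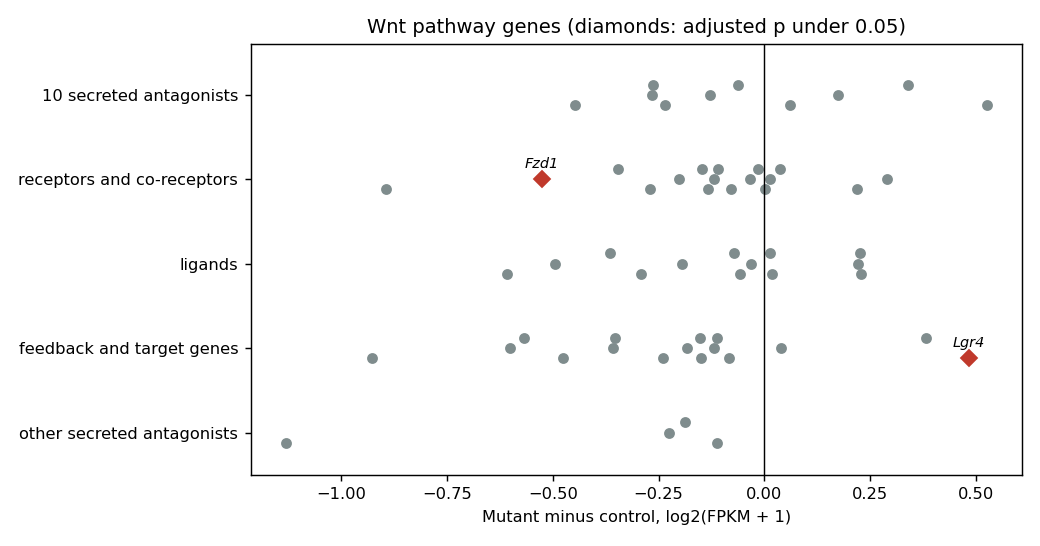
Log2 change between the libraries labelled mutant and the controls, on the log2(FPKM + 1) scale, for the tested genes of the 10 antagonists and of 4 lists of the Wnt pathway, with diamonds for genes past an adjusted p of 0.05. Fzd1 at -0.53 and Lgr4 at 0.48 are the diamonds, and the leftmost point of the other antagonists is Sfrp5, which is high in control 2 alone.

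Sfrp5, the other frizzled-related gene, was singled out once its values were known because 1 library stood apart. It had 0.38, 0.16 and 0.48 FPKM in the libraries labelled mutant, against 0.55, 9.87 and 0.47 FPKM in controls 1 to 3. The inner ear list, with 3 of 8 genes tested, summed to 1.94 to 4.54 FPKM in the libraries labelled mutant and to 4.86, 89.5 and 5.71 FPKM in controls. Oc90, a gene of the otoconia of the ear, had 0.135, 0.252 and 0 FPKM in the libraries labelled mutant, against 0.327, 56.6 and 1.00 FPKM in controls, and Otor, known from the cochlea, had 22.5 FPKM in control 2 and under 2 FPKM in every other library. The part of this tissue in the antagonist levels was not tested. Without control 2 the log2 change was 0.27 for Frzb, 0.24 for Wif1, 0.38 for Dkk1 and -0.62 for Sost, and none of them passed.

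By likeness over the 6 libraries, the most abundant gene of each kind was compared with all tested genes on log2(FPKM + 1). For Dkk1 the closest were Stag1, Trmt2b and Col24a1, with Pearson r of 0.994, 0.992 and 0.992. Col24a1, a fibrillar collagen gene of forming bone, had 17.4, 15.7 and 22.3 FPKM in the libraries labelled mutant against 12.7, 11.1 and 15.2 FPKM in controls, so it shared the high values of library 3 labelled mutant and control 3. For Wif1 the closest were Fam111a, Rad50 and Stag1 (0.989, 0.988 and 0.985). For Sfrp2 they were Tmed10, Col12a1 and Tmem185b (0.995, 0.992 and 0.988). Col12a1, a collagen gene of dense connective tissue, had 244, 214 and 280 FPKM in the libraries labelled mutant against 271, 246 and 263 FPKM in controls. With the group means taken off, these 9 values lay between 0.973 and 0.997. The points are the same 6 libraries throughout, and many genes lay as close, with 61 genes above 0.95 for Wif1, 74 for Dkk1 and 35 for Sfrp2.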

How the data were processed

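Libraries were made with a TruSeq stranded mRNA kit, per the labels. The deposited values are FPKM per gene name and library, made by the authors with Cufflinks 2.2.1 after TopHat2 2.0.13, Bowtie2 2.2.3 and SAMtools 0.1.19 on the mm10 build, per the submitters' processing notes. Options, annotation, use of strand and read totals are not given in the sources used here. Groups and replicate numbers come from the sample titles.

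A gene entered the test where its values averaged 1 FPKM or more. The test was that of limma 3.58.1, run in R 4.3.3 on the log2(FPKM + 1) scale (eBayes with trend, group as the 1 term, two-sided, Benjamini-Hochberg adjustment at 0.05). All 10 antagonist genes passed this filter. Log2 changes understate those of low genes. The fit was tested on simulated data with changes of 2-fold or more. These exceed the estimate of every antagonist gene, so the simulation does not show that smaller changes would be found. For Pth1r an exact permutation test was added.

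The members, classes and lists were chosen with earlier results of these data known. Named genes are the 10 members, Pth1r, in each pathway list those past the threshold and the 2 smallest p, in each marker list the 2 most abundant, and the 3 closest by Pearson r to the most abundant member of each class. Others are marked. Snorc (cartilage) and Hbb-bt (red cell) matched no name, and Notum stands in 2 pathway lists. Coordinates are those of GENCODE M21 on GRCm38, the assembly of mm10. The other settings were a pseudocount of 0.1, no filter, a filter at 5 FPKM, median-of-ratios and quantile scaling, array weights, a sex term, robust eBayes, eBayes without trend, a block for the replicate number and leaving out each library.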

Additional observations from a re-analysis of the deposited data

How the results depend on the processing

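No antagonist gene passed under any of the 16 other settings, over 159 values, and 8 of the 10 kept their direction throughout. Dkk2 was reversed without library 3 labelled mutant (-0.026) and Sostdc1 without control 3 (0.044); leaving out 1 library gave -0.026 to 0.113 for Dkk2 and -0.139 to 0.044 for Sostdc1, which had no value with the filter at 5 FPKM. Adjusted p went as low as 0.0946 for Sfrp4 and 0.14 for Dkk1. Of all genes, 69 were called higher and 11 lower, against 44 and 6 without a filter, 152 and 31 with array weights, and 41 and 2 with a sex term. Leaving out 1 library gave 15 to 34 higher and 1 to 12 lower. Pth1r passed with array weights (log2 change 0.40, limma, adjusted p = 0.0459). In the other Wnt pathway lists, the count called higher was 0 without a filter, with eBayes without trend and without any 1 library, and the count called lower was 0 in these and with a sex term, and 2 with array weights. Leaving out 1 library gave 0 to 0 for both counts. Same-numbered libraries of the groups deviated together with r of 0.0163, -0.0714 and 0.0153, so the numbers were not taken as pairs. With the number as a replicate block 23 genes were called higher and 2 lower, with 0 in either direction among the other pathway genes and among the antagonists. Depth is unknown, so precision rests on the spread between 3 libraries a group.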
